A study of Homo sapiens with 12 samples.

Results

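The S100 genes encode small calcium-binding proteins, and 10 of them are described here in RNAseq of SKBR-3 cells: S100A4, S100A6, S100A7, S100A8, S100A9, S100A10, S100A11, S100A14, S100A16 and S100P. They were chosen by gene symbol and make up 10 of the 20531 genes in the deposited tables, and all 10 were found there and passed the filter on low counts, 10 counts in a library, in each comparison and through libraries of both groups compared. SKBR-3 is an established human breast carcinoma cell line with an amplified HER2 gene and no estrogen receptor. The 12 libraries fall into 4 groups of 3 replicates, and every group came from transfected cells grown in serum. Cells received a non-targeting (NT) siRNA pool or an siRNA pool against FOXA1, a forkhead transcription factor of luminal epithelium, and were then given DMSO, the solvent, or 300 nM lapatinib, an inhibitor of the EGFR and HER2 kinases, for 24 h. The groups are therefore NT with DMSO, NT with lapatinib, FOXA1 siRNA with DMSO and FOXA1 siRNA with lapatinib. For every group the labels give 48 h of siRNA, and the paper's methods give 24 h of it before the drug. All of them are bulk RNA of a single cell line, in which fewer cells of a type and less RNA per cell cannot be told apart. No source used here says that replicates came from separate cultures, so p-values measure the spread between these libraries, which may be technical.

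Most S100 proteins are dimers in which each subunit holds a pair of EF-hand calcium-binding loops. In most of them calcium opens the dimer, which then binds a partner protein. S100A8 and S100A9 pair with each other as calprotectin, an antimicrobial protein of neutrophils and stressed epithelium that withholds zinc and manganese from microbes, and S100A7, or psoriasin, is made by keratinocytes and some breast carcinomas. S100A4, or metastasin, binds non-muscle myosin, S100A6, or calcyclin, binds the protein CACYBP, S100A10 and S100A11 bind annexins, and S100P binds ezrin and is found in placenta and carcinomas of several organs. Most S100 genes lie together in the epidermal differentiation region of chromosome 1, among genes of the cornified envelope of skin.

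Library totals ran from 25749578 to 32271850 expected counts, with a median of 30542430. FOXA1 was checked first, and its normalized counts (counts scaled to a common library size) were 8446, 8308 and 8767 in NT with DMSO, 12672, 12168 and 13177 in NT with lapatinib, 1160, 1362 and 1564 in FOXA1 siRNA with DMSO and 1642, 1889 and 2384 in FOXA1 siRNA with lapatinib. FOXA1 was at 16.2% of its NT level in DMSO and at 15.5% in lapatinib, with no overlap between the groups. Lapatinib raised FOXA1 1.51-fold in NT cells, with an edgeR adjusted p of 2.1e-05. The markers of the line were high in every library (ERBB2, KRT7, KRT8, KRT18, KRT19, GRB7 and EPCAM, summed between 14573 and 22224 TPM, the deposited transcript level per length). The 8 myeloid markers, whose cells are the textbook source of S100A8 and S100A9, summed to between 3.31 and 10.1 TPM, most of it CSF1R, and MPO was at 0 in every group. CSF1R went from a mean of 4.91 TPM in NT with DMSO to 8.06 TPM in FOXA1 siRNA with DMSO (log2 fold change 0.73 ± 0.19 (SE), adjusted p = 0.0146). Of the other 2 myeloid markers tested there, ITGAM, which passed the filter on low counts through NT libraries only, fell from 8.18 to 0.31 normalized counts (adjusted p = 0.00615) and CD14 did not pass (adjusted p = 0.454). With FOXA1 siRNA in lapatinib 2 myeloid markers were tested and 2 rose, where 22.7% of all genes did. CSF1R went from a mean of 3.41 to 7.05 TPM there. CD14 passed the filter through FOXA1 siRNA libraries only, so its rise was bound to the filter. The part of these markers in the changes of S100A8 and S100A9 was not tested. The library numbered 2 stood apart from its replicates in each group: the chi-square per degree of freedom of its counts against them was between 12.1 and 17.6, against 3.62 to 5.68 between the libraries numbered 1 and 3.

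The members covered a wide range of levels. In NT with DMSO, S100A6 stood at 5338 ± 406 TPM (SD, n = 3), the rank of 8 among all genes of the tables. S100A11 followed at 1587 ± 64.8 TPM, S100A14 at 1456 ± 66.1 TPM, S100A16 at 1445 ± 69.5 TPM and S100A4 at 1363 ± 165 TPM, and the last 3 of these overlapped one another. S100A9 was at 986 ± 233 TPM and S100P at 347 ± 50.5 TPM. S100A10, at 111 ± 12.6 TPM, and S100A8, at 94.2 ± 30.6 TPM, overlapped, and S100A7 was the lowest at 2.64 ± 1.03 TPM.

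The 10 genes together held 1.37% of the listed TPM in NT with DMSO, 1.55% in NT with lapatinib, 1.96% in FOXA1 siRNA with DMSO and 1.93% in FOXA1 siRNA with lapatinib. The order changed with the siRNA. In FOXA1 siRNA with DMSO, S100A4 had passed S100A11, S100A14 and S100A16 and stood at 3218 ± 170 TPM, the rank of 16 against 83 in NT with DMSO. S100A9 stood at 2292 ± 435 TPM, the rank of 37 against 121, and S100A6 had the rank of 4.

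The members whose expression moved most share a letter pattern before their start sites. The stretch from 60 bases before to 19 bases after a RefSeq start site (GRCh38.p14, gene strand) is shown here for all 10 genes. Members with and without large changes differ there in an exact run of letters. Capitals mark TATAAA, the core of the TATA box that positions RNA polymerase II.
S100A8 (chr1:153391054-153391133, minus strand): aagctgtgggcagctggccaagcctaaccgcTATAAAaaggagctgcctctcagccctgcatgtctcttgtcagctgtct
S100A9 (chr1:153357794-153357873, plus strand): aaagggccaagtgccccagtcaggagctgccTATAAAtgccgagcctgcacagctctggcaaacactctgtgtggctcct
S100A7 (chr1:153460632-153460711, minus strand): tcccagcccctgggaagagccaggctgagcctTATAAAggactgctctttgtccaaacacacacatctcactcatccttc
S100A4 (chr1:153545787-153545866, minus strand): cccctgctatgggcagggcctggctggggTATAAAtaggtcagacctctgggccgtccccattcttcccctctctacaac
S100P (chr4:6693818-6693897, plus strand): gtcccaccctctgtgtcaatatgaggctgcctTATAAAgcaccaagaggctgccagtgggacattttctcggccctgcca
S100A6 (chr1:153535972-153536051, minus strand): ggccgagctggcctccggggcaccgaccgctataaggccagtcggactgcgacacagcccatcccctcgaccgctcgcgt
S100A10 (chr1:151993840-151993919, minus strand): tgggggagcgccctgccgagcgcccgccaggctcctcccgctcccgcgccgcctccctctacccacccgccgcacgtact
S100A11 (chr1:152036985-152037064, minus strand): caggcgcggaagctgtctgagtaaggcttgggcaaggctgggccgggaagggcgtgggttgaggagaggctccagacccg
S100A14 (chr1:153616306-153616385, minus strand): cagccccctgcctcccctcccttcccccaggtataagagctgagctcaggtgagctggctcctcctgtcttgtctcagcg
S100A16 (chr1:153613118-153613197, minus strand): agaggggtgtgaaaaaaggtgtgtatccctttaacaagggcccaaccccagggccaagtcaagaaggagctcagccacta
TATAAA stood between 28 and 31 bases before the start site shown of S100A8, S100A9, S100A7, S100A4 and S100P, and in none of the other 5. Those 5 are also the members that passed a log2 fold change of 1 in any comparison described here, 5 of 5 with the letters and 0 of 5 without. S100A8 has 3 start sites in RefSeq, and this spacing holds for the 1 shown. The same letters start at -126 from the site at 153390976, and the promoter of the site at 153391188 holds none. Of 35116 RefSeq promoters, 4.16% hold TATAAA or its reverse complement TTTATA in this window of 80 bases, and 3.0% hold it on the gene strand. The windows shown of S100A6 and S100A14 hold tataag before the start site, which differs from TATAAA in its last letter. Only the exact letters TATAAA were counted, so the members without them are not shown to lack a TATA box. The letters TATAAA were searched after the sequences and the changes had been seen, and the match is a description with no test.

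Other motifs were searched on both strands in the longer RefSeq promoters, from 250 bases before to 50 after each start site, of which the members have 13. The forkhead forms GTAAACA and GTCAACA were in 0 of the 13, against 3.42% and 2.32% of all promoters. The AP-1 motif TGANTCA and the STAT motif TTCNNNGAA were in 0 of the 13 too, against 7.71% and 7.66%. The C/EBP motif TTGCNNAA was in that of S100A11 alone, starting 33 bases before the start site, against 10.5% of all. No match says only that these letters are not in the window searched.

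FOXA1 siRNA raised the calprotectin pair S100A8 and S100A9, psoriasin and S100A4, in DMSO and in lapatinib alike. In DMSO, 6 members rose and 1 fell (edgeR, Benjamini-Hochberg adjusted p under 0.05 across all genes), where 43.2% of all genes passed, 21.9% upward and 21.3% downward. S100A4, S100A7, S100A8 and S100A9 also passed a log2 fold change of 1, all upward, where 6.84% of all genes did, 4.06% upward and 2.77% downward. In lapatinib, 5 members rose and 1 fell, where 44.9% of all genes passed, 22.7% upward and 22.2% downward. The 4 genes that passed a log2 fold change of 1 were the same, all upward, where 8.41% of all genes did, 4.51% upward and 3.90% downward. The members' median log2 fold change was 0.31 in DMSO and 0.14 in lapatinib, against -0.0053 and -0.0052 over all genes tested. The comparisons in DMSO and in lapatinib share no library.

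Lapatinib lowered S100A8 and S100A9 and raised S100P, with either siRNA. With NT siRNA, 4 members rose and 3 fell, where 59.7% of all genes passed, 30.5% upward and 29.2% downward. S100P rose and S100A8 and S100A9 fell past a log2 fold change of 1, where 13.8% of all genes did, 6.64% upward and 7.13% downward. With FOXA1 siRNA, 4 rose and 4 fell, where 58.2% of all genes passed, 29.0% upward and 29.1% downward. S100A8 and S100A9 passed a log2 fold change of 1, downward, where 10.1% of all genes did, 4.93% upward and 5.12% downward. The shares of members that passed were 70% and 80%. The members' median was -0.013 in NT cells and -0.14 in cells with FOXA1 siRNA, against 0.025 and 0.0060 over all genes.

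**Figure D1:**
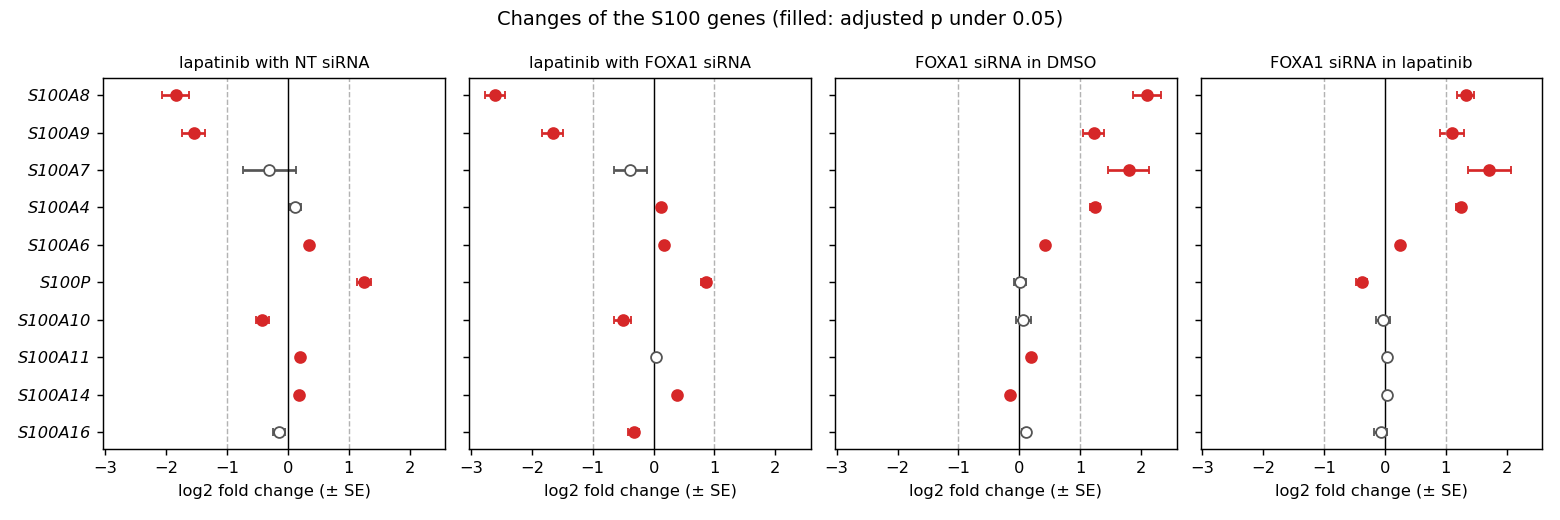
Log2 fold change with SE (horizontal axis) of each of the 10 members in the 4 comparisons of 3 libraries against 3; filled points have an adjusted p under 0.05 and dashed lines mark a log2 fold change of 1 in size. S100A8 and S100A9 lie left of -1 in both lapatinib panels and right of 1 in both FOXA1 siRNA panels, and S100P reaches 1.25 with lapatinib in NT cells.

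S100A8 (Entrez gene 6279, GRCh38.p14 chr1:153390032-153422583) had 432, 685 and 409 normalized counts in NT with DMSO, 147, 157 and 115 in NT with lapatinib, 1984, 2722 and 1788 in FOXA1 siRNA with DMSO and 322, 395 and 338 in FOXA1 siRNA with lapatinib. FOXA1 siRNA with DMSO was highest and NT with lapatinib lowest, and in no comparison did the groups overlap. FOXA1 siRNA raised S100A8 4.29-fold in DMSO (log2 fold change 2.10 ± 0.23 (SE), adjusted p = 0.000286) and 2.50-fold in lapatinib (1.32 ± 0.14, adjusted p = 0.000194). Lapatinib brought it to 27.8% of its DMSO level in NT cells (-1.84 ± 0.23, adjusted p = 0.000184) and to 16.4% with FOXA1 siRNA (-2.61 ± 0.16, adjusted p = 8.3e-06).

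S100A9 (Entrez gene 6280, chr1:153357854-153361023) moved in the same directions at a higher level. Its normalized counts were 7431, 10001 and 6733 in NT with DMSO, 2459, 3473 and 2208 in NT with lapatinib, 17287, 22533 and 16041 in FOXA1 siRNA with DMSO and 5285, 7360 and 4930 in FOXA1 siRNA with lapatinib. The 2 treatments opposed each other: with both, S100A9 lay below the range of NT with DMSO in 2 libraries and within it in the third. FOXA1 siRNA raised S100A9 2.33-fold in DMSO (log2 fold change 1.22 ± 0.17, adjusted p = 0.000978) and 2.15-fold in lapatinib (1.10 ± 0.19, adjusted p = 0.00232), and lapatinib lowered it to 34.1% in NT cells (-1.55 ± 0.20, adjusted p = 0.000211) and to 31.7% with FOXA1 siRNA (-1.66 ± 0.17, adjusted p = 8.2e-05). The library numbered 2 was the highest of its group for S100A8 and S100A9 in all 4 groups. Without those 4 libraries the log2 fold change of S100A9 in FOXA1 siRNA with DMSO was 1.25 and that of S100A8 2.18.

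S100A8 and S100A9 act as a heterodimer, so their ratio was taken per library from TPM. S100A9 stood at 11.4, 9.67 and 10.9 times S100A8 in NT with DMSO, at 11.1, 14.7 and 12.7 times in NT with lapatinib, at 5.77, 5.49 and 5.95 times in FOXA1 siRNA with DMSO and at 10.9, 12.3 and 9.67 times in FOXA1 siRNA with lapatinib. S100A9 was in excess in each library, and the excess was smallest in FOXA1 siRNA with DMSO, which overlapped with no other group. An exact two-sided permutation test of NT against FOXA1 siRNA in DMSO gave p = 0.1, which is the smallest that 3 libraries against 3 allow. In lapatinib the ratios of NT and FOXA1 siRNA overlapped (exact unpaired permutation p = 0.2), while the ratio was lower with FOXA1 siRNA in 3 of 3 pairs of the same replicate number.

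S100A7 (Entrez gene 6278, chr1:153457744-153460651) rose with FOXA1 siRNA at a far lower level. Its normalized counts were 8.87, 18.8 and 19.2 in NT with DMSO, 16.6, 13.9 and 7.18 in NT with lapatinib, 54.0, 68.9 and 40.0 in FOXA1 siRNA with DMSO and 39.3, 53.8 and 30.7 in FOXA1 siRNA with lapatinib. Every FOXA1 siRNA library lay above every NT library. The rise was 3.48-fold in DMSO (log2 fold change 1.80 ± 0.34, adjusted p = 0.00356) and 3.28-fold in lapatinib (1.71 ± 0.35, adjusted p = 0.00505), while lapatinib gave -0.30 ± 0.43 with NT siRNA and -0.38 ± 0.27 with FOXA1 siRNA, neither past the test. A library held only 7 to 74 reads of it, and in 5 libraries the expected count was not whole, as happens when reads are divided between genes such as S100A7 and the near-identical S100A7A, so the value is uncertain.

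**Figure D2:**
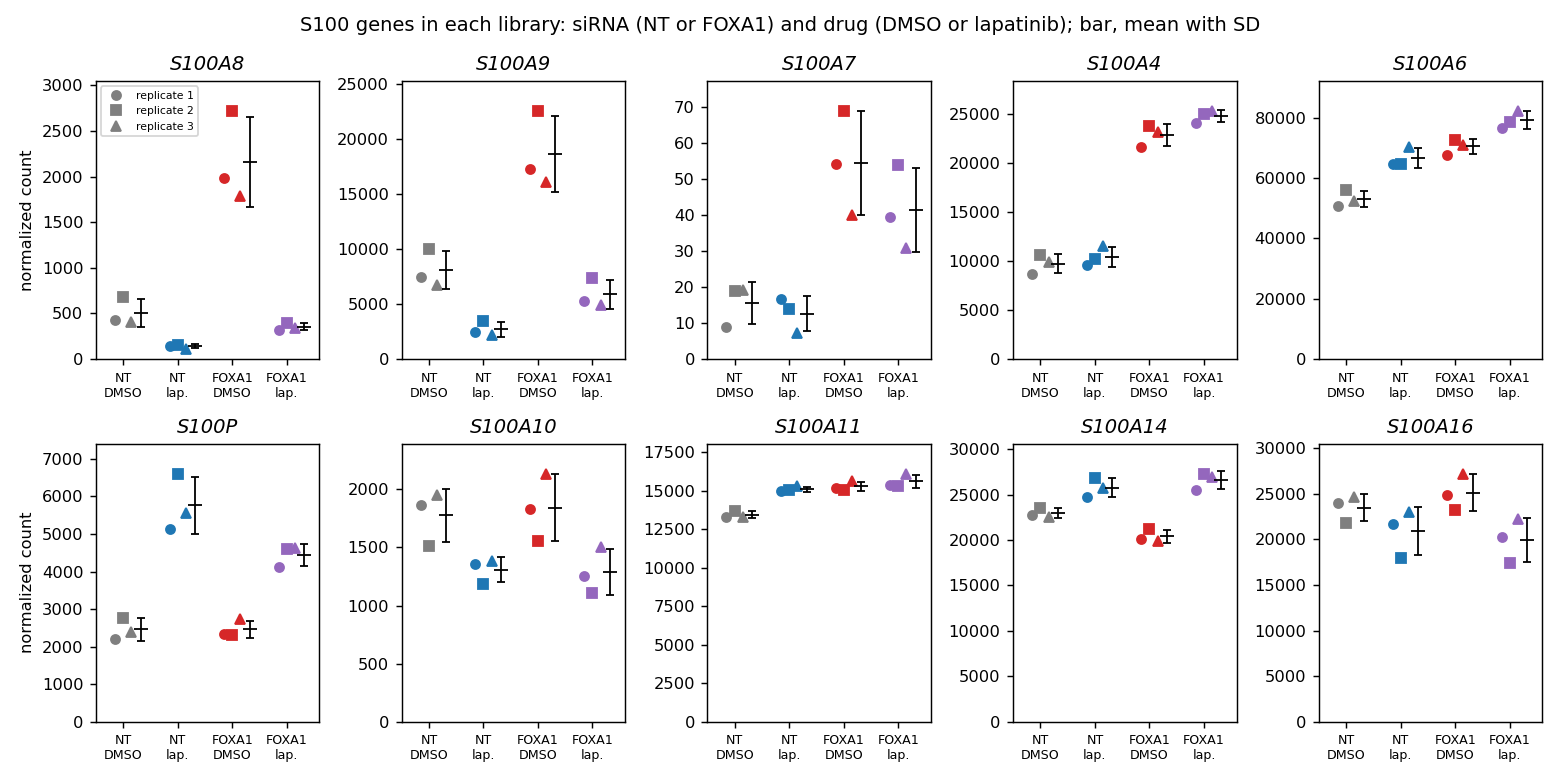
Normalized counts (vertical axis, from 0) of the 10 members in each of the 12 libraries, by siRNA and drug; symbols mark the replicate number and the black bar the mean with SD of 3 libraries. S100A8, S100A9, S100A7 and S100A4 are higher in FOXA1 siRNA with DMSO than in NT with DMSO with no overlap, and S100P is higher in both lapatinib groups.

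S100A4 (Entrez gene 6275, chr1:153543621-153545806) followed the siRNA with little change in lapatinib. Its normalized counts were 8725, 10615 and 9897 in NT with DMSO, 9606, 10171 and 11568 in NT with lapatinib, 21616, 23828 and 23199 in FOXA1 siRNA with DMSO and 24087, 25030 and 25336 in FOXA1 siRNA with lapatinib. FOXA1 siRNA raised S100A4 2.37-fold in DMSO (log2 fold change 1.24 ± 0.078, adjusted p = 2.2e-05) and 2.36-fold in lapatinib (1.24 ± 0.068, adjusted p = 9.4e-06). Lapatinib gave 0.12 ± 0.091 in NT cells, where the groups overlapped, and 0.13 ± 0.045 with FOXA1 siRNA (adjusted p = 0.0417), a call that DESeq2 did not make (adjusted p = 0.0537).

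S100A6 (Entrez gene 6277, chr1:153534599-153535991), a neighbour of S100A4, rose in all 4 comparisons, by less than a log2 fold change of 0.5. Its normalized counts were 50816, 56054 and 52214 in NT with DMSO, 64587, 64708 and 70360 in NT with lapatinib, 67728, 72504 and 71065 in FOXA1 siRNA with DMSO and 76662, 78685 and 82239 in FOXA1 siRNA with lapatinib. The lowest group was NT with DMSO and the highest was that with both treatments. FOXA1 siRNA gave 0.42 ± 0.051 in DMSO (adjusted p = 0.000436) and 0.24 ± 0.048 in lapatinib (adjusted p = 0.00424), and lapatinib gave 0.35 ± 0.058 in NT cells (adjusted p = 0.000976) and 0.18 ± 0.041 with FOXA1 siRNA (adjusted p = 0.00603). The TPM of S100A4 was 0.255 ± 0.014 of that of S100A6 in NT with DMSO and 0.451 ± 0.0068 in FOXA1 siRNA with DMSO, with no overlap (exact permutation p = 0.1, the smallest possible).

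S100P (Entrez gene 6286, chr4:6693878-6697170), the only member that is not on chromosome 1, was the member that lapatinib raised most. Its normalized counts were 2193, 2776 and 2401 in NT with DMSO, 5122, 6611 and 5547 in NT with lapatinib, 2348, 2309 and 2725 in FOXA1 siRNA with DMSO and 4112, 4600 and 4623 in FOXA1 siRNA with lapatinib. In DMSO the siRNA groups overlapped, and in lapatinib each FOXA1 siRNA library lay below each NT library. Lapatinib raised S100P 2.38-fold in NT cells (log2 fold change 1.25 ± 0.11, adjusted p = 3.8e-05) and 1.82-fold with FOXA1 siRNA (0.86 ± 0.077, adjusted p = 4.1e-05). FOXA1 siRNA gave 0.015 ± 0.10 in DMSO and -0.38 ± 0.092 in lapatinib (adjusted p = 0.0106).

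S100A10 (Entrez gene 6281, chr1:151982915-151993859), the partner of annexin A2 at the plasma membrane, fell with lapatinib and did not pass the test with FOXA1 siRNA. Its normalized counts were 1866, 1512 and 1948 in NT with DMSO, 1357, 1186 and 1384 in NT with lapatinib, 1832, 1559 and 2136 in FOXA1 siRNA with DMSO and 1256, 1110 and 1500 in FOXA1 siRNA with lapatinib. The drug groups did not overlap within either siRNA, and the library numbered 2 was the lowest in all 4 groups. Lapatinib gave -0.42 ± 0.10 in NT cells (adjusted p = 0.00757) and -0.51 ± 0.14 with FOXA1 siRNA (adjusted p = 0.0118), and FOXA1 siRNA gave 0.067 ± 0.13 in DMSO and -0.030 ± 0.11 in lapatinib.

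ANXA2, which encodes annexin A2, showed the other pattern. It stood at 2125 ± 173 normalized counts in NT with DMSO, 2092 ± 273 in NT with lapatinib, 1366 ± 137 in FOXA1 siRNA with DMSO and 1406 ± 82.4 in FOXA1 siRNA with lapatinib. FOXA1 siRNA lowered it to 64.9% in DMSO (log2 fold change -0.62 ± 0.086, adjusted p = 0.000846) and to 66.9% in lapatinib (-0.58 ± 0.097, adjusted p = 0.00177), while lapatinib gave -0.00037 ± 0.10 and 0.050 ± 0.083. The ratio of S100A10 to ANXA2 in TPM was 1.27 ± 0.095 in NT with DMSO, 0.954 ± 0.058 in NT with lapatinib, 2.04 ± 0.14 in FOXA1 siRNA with DMSO and 1.38 ± 0.13 in FOXA1 siRNA with lapatinib. In each of the 4 comparisons the ratios did not overlap (exact permutation p = 0.1, the smallest possible).

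S100A11 (Entrez gene 6282, chr1:152032506-152037004), which binds annexin A1, was the steadiest member, between 13297 and 16124 normalized counts over the 12 libraries. It rose 1.14-fold with lapatinib in NT cells (log2 fold change 0.19 ± 0.042, adjusted p = 0.00465) and 1.15-fold with FOXA1 siRNA in DMSO (0.20 ± 0.037, adjusted p = 0.00351). With the other treatment already present the further changes, 0.038 ± 0.039 and 0.039 ± 0.040, did not pass the test.

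ANXA1, which encodes annexin A1, an inhibitor of inflammation, had 33.5, 38.7 and 35.5 normalized counts in NT with DMSO, 27.3, 26.8 and 31.8 in NT with lapatinib, 656, 557 and 568 in FOXA1 siRNA with DMSO and 241, 204 and 235 in FOXA1 siRNA with lapatinib. FOXA1 siRNA raised ANXA1 16.6-fold in DMSO (log2 fold change 4.06 ± 0.12, adjusted p = 1.9e-06) and 7.83-fold in lapatinib, and with FOXA1 siRNA lapatinib brought it to 38.4% (adjusted p = 1.8e-05). The difference between its lapatinib responses passed the test of the interaction (-1.07 ± 0.19, adjusted p = 0.00673). The ratio of S100A11 to ANXA1 in TPM was 988 ± 102 in NT with DMSO and 66.5 ± 6.17 in FOXA1 siRNA with DMSO.

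**Figure D3:**
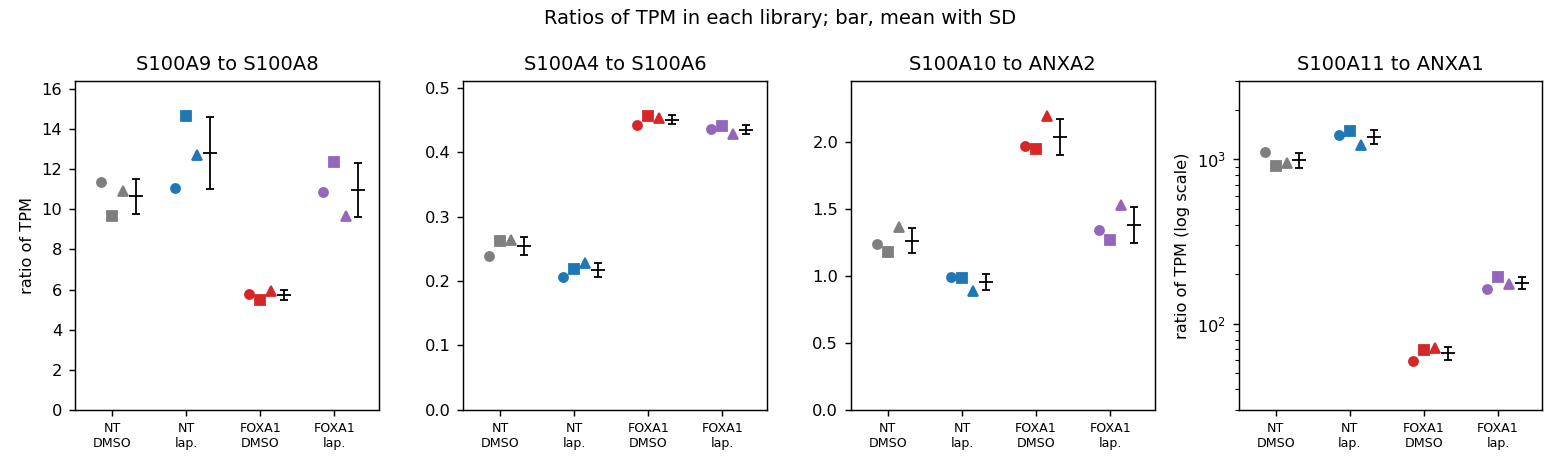
Ratio of TPM (vertical axis, from 0, log scale in the last panel) of 4 gene pairs in each of the 12 libraries, with the mean and SD of each group. S100A9 to S100A8 is between 5.49 and 5.95 in FOXA1 siRNA with DMSO, below every other library, and S100A10 to ANXA2 is highest there, at 2.04 ± 0.14.

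S100A14 (Entrez gene 57402, chr1:153614255-153616325) and S100A16 (Entrez gene 140576, chr1:153606883-153613137) are neighbours and moved in opposite directions with lapatinib in cells with FOXA1 siRNA. S100A14 had 22773, 23561 and 22567 normalized counts in NT with DMSO, 24780, 26802 and 25703 in NT with lapatinib, 20064, 21214 and 19917 in FOXA1 siRNA with DMSO and 25484, 27321 and 26952 in FOXA1 siRNA with lapatinib. It was lowest in FOXA1 siRNA with DMSO, and the 2 lapatinib groups overlapped. Lapatinib gave 0.19 ± 0.047 in NT cells (adjusted p = 0.00837) and 0.39 ± 0.043 with FOXA1 siRNA (adjusted p = 0.000115), and FOXA1 siRNA gave -0.16 ± 0.042 in DMSO (adjusted p = 0.0172) and 0.038 ± 0.046 in lapatinib. S100A16 lay between 17416 and 27238 normalized counts, with the library numbered 2 lowest in all 4 groups. Lapatinib lowered S100A16 with FOXA1 siRNA (-0.32 ± 0.091, adjusted p = 0.0149). Lapatinib gave -0.15 ± 0.092 in NT cells and FOXA1 siRNA gave 0.11 ± 0.065 in DMSO, and neither passed. With a block for the replicate number, both passed (adjusted p = 0.0253 and 0.00579).

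The lapatinib response of the members was compared between the siRNAs by the interaction of siRNA and drug over all 12 libraries. None of the 10 members passed at an adjusted p under 0.05 by edgeR, where 7.19% of all genes did, 3.99% upward and 3.20% downward. Of the members, 5 had an unadjusted p under 0.05, for which no share over all genes was taken. DESeq2 called 2 members, S100A11 and S100A14, where it called 821 of 14012 genes upward and 630 downward. The interaction of S100A14 was 0.22 ± 0.061 with an adjusted p of 0.0510 and that of S100A8 -0.76 ± 0.31 with an adjusted p of 0.165. With a block for the replicate number, 4 members passed: S100A8 at -0.75 ± 0.14 (adjusted p = 0.00324), S100A11 at -0.14 ± 0.041 (adjusted p = 0.0306), S100A14 at 0.22 ± 0.040 (adjusted p = 0.00255) and S100P at -0.38 ± 0.10 (adjusted p = 0.0232). The blocked fit also called more of all 14012 genes, 1561 upward and 1292 downward, against 559 and 449 without the block. Without the libraries numbered 2, S100A8, S100A14 and S100P passed, where 1426 of 13861 genes passed upward and 1092 downward. A negative value means a lower log2 fold change with lapatinib when FOXA1 siRNA is present. S100A9, whose protein pairs with S100A8, gave -0.099 ± 0.29, and -0.10 ± 0.047 with the block (adjusted p = 0.156).

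Most of the S100 genes that rose with FOXA1 siRNA lay side by side on chromosome 1. Between the lower ends of S100A9 and S100A2, a stretch of 203.3 kb, 9 S100 genes were tested, in the order S100A9, S100A8, S100A7A, S100A7, S100A6, S100A5, S100A4, S100A3 and S100A2. S100A7A passed the filter through FOXA1 siRNA libraries only, so its rise was bound to the filter. The other 8 rose with FOXA1 siRNA in DMSO, by log2 fold changes from 0.42 to 2.72, and in lapatinib, from 0.24 to 2.55. Of all genes tested, 21.9% rose in DMSO and 22.7% in lapatinib. In the next stretch, from S100A16 to S100A1, 4 S100 genes were tested, of which S100A14 fell in DMSO, and the others gave log2 fold changes of up to 0.37 in DMSO and 0.69 in lapatinib that did not pass the test. S100A10 and S100A11, on the other side at -1374.9 and -1325.3 kb from S100A9, gave 0.067 and 0.20 in DMSO. The ends of these stretches were set after the values had been seen.

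The 4 of those 9 genes that are no members stood lower than S100A4 and S100A6. S100A3 stood at 61.4 ± 23.0 normalized counts in NT with DMSO and 403 ± 80.9 in FOXA1 siRNA with DMSO (log2 fold change 2.72 ± 0.26, adjusted p = 0.000141) and was lowered by lapatinib with FOXA1 siRNA (-1.05 ± 0.18, adjusted p = 0.00134). S100A2 rose by 1.28 and 1.03, S100A5 by 0.78 and 0.74 and S100A7A by 3.22 and 2.19 with FOXA1 siRNA in DMSO and in lapatinib, S100A7A from 2.27 ± 1.11 normalized counts. S100A3 lies within the span of a longer annotated transcript of S100A4 on the same strand, with no shared exon, and reads of S100A7A can be divided with S100A7, so its value is uncertain. S100A13, in the next stretch, fell with lapatinib, by -0.21 ± 0.069 in NT cells and -0.32 ± 0.054 with FOXA1 siRNA.

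Of 55 genes that are no S100 genes and lie within 500 kb of a member on chromosome 1, 32 were tested with FOXA1 siRNA in DMSO, and 7 rose and 14 fell, where 21.9% and 21.3% of all genes did, with a median log2 fold change of 0.018. IVL, which encodes involucrin of the cornified envelope, rose by 2.11 ± 0.073 (adjusted p = 3.3e-06) and TCHHL1, whose protein has an S100-like start, by 1.05 ± 0.17 (adjusted p = 0.00157). With lapatinib in NT cells 29 were tested, of which 17 rose and 4 fell, with a median of 0.32 against 0.025 over all genes. THEM5, 1 of the 17, passed the filter through lapatinib libraries only, so its rise was bound to the filter. Of the 27 that passed it through both groups, 16 rose and 4 fell, where 30.5% and 29.2% of all genes did. IVL fell with lapatinib in NT cells, by -0.35 ± 0.11 (adjusted p = 0.0226).

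**Figure D4:**
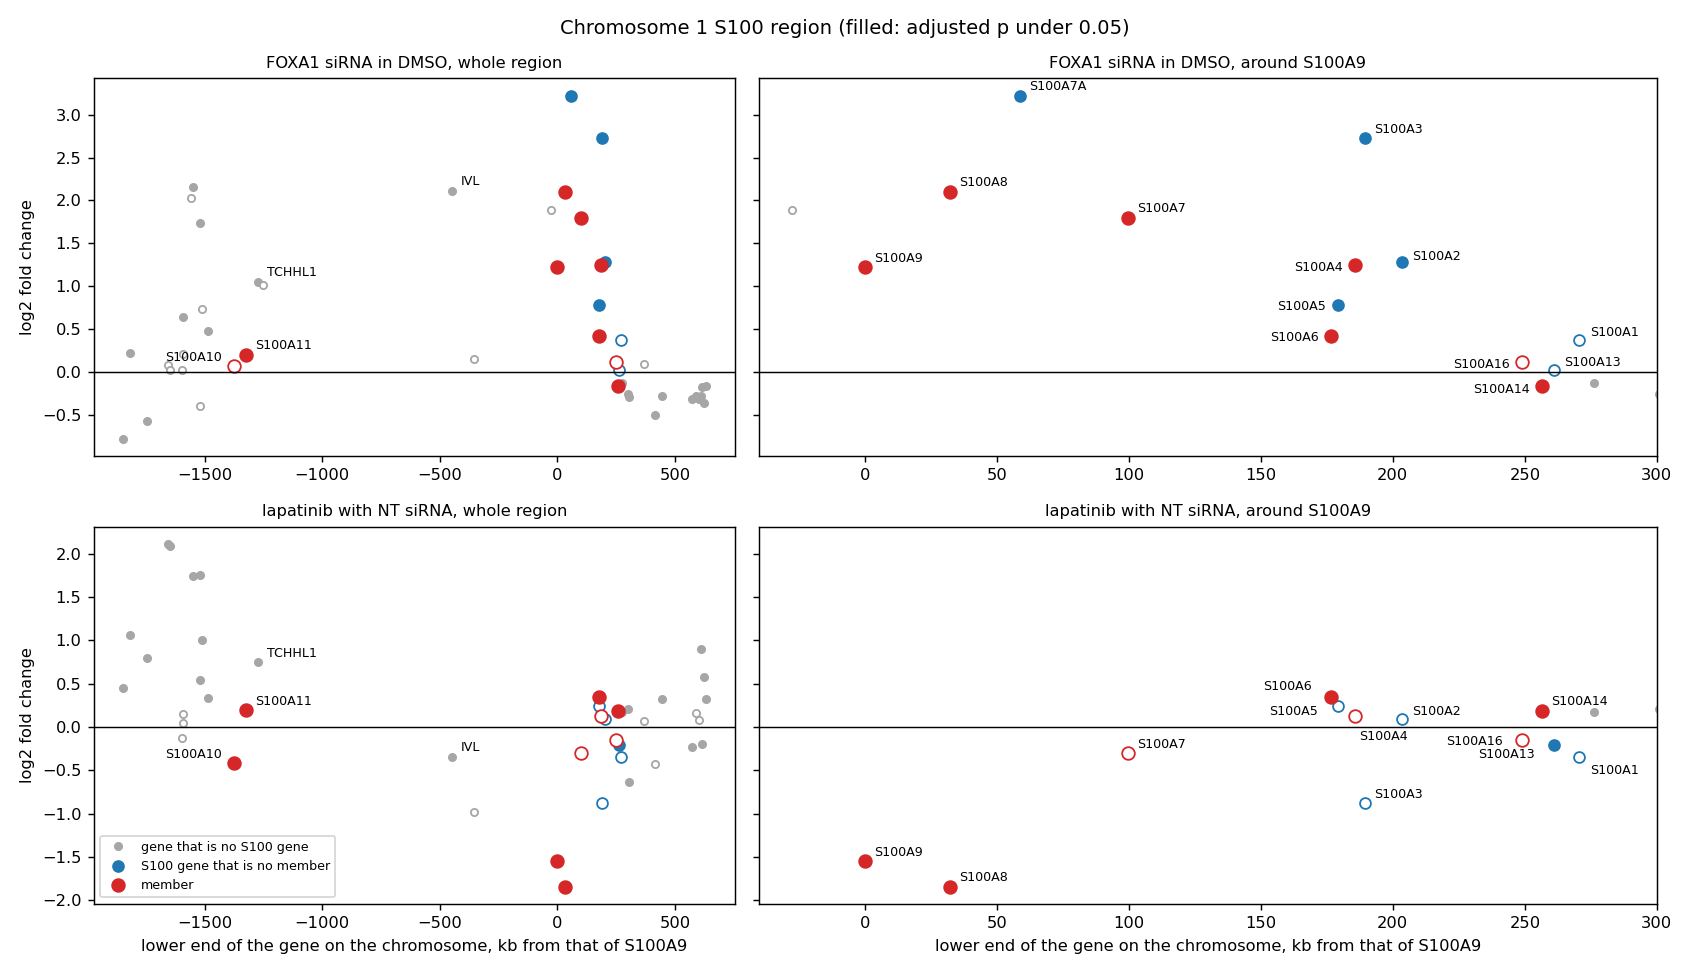
Log2 fold change (vertical axis) of S100 genes and their neighbours on chromosome 1 against the distance in kb of each gene's lower end from that of S100A9, for FOXA1 siRNA in DMSO (top) and lapatinib in NT cells (bottom), the right panels enlarging the stretch around S100A9; filled points have an adjusted p under 0.05. The 8 S100 genes from S100A9 to S100A2 that passed the filter through both groups lie above 0 in the upper panels, as does S100A7A, which passed it through FOXA1 siRNA libraries only, and S100A8 and S100A9 lie lowest in the lower panels, at -1.84 and -1.55.

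Genes that encode partners and receptors of S100 proteins were tested as a list of 19, of which 17 passed the filter. With lapatinib in NT cells 3 rose and 3 fell, where 30.5% and 29.2% of all genes did. With FOXA1 siRNA in DMSO 7 rose and 2 fell, where 21.9% and 21.3% of all genes did, with a median of -0.0083. AHNAK, a giant scaffold that binds S100A10 and annexin A2, rose with lapatinib by 1.42 ± 0.075 in NT cells (adjusted p = 3.7e-06) and by 1.32 ± 0.16 with FOXA1 siRNA. FABP5, a fatty acid carrier that binds S100A7, fell by -3.18 ± 0.28 in NT cells (adjusted p = 3.3e-05) and by -2.74 ± 0.22 with FOXA1 siRNA, and CACYBP, the partner of S100A6, fell by -1.06 ± 0.095 in NT cells (adjusted p = 3.4e-05). IQGAP1, a scaffold that binds S100P, rose with FOXA1 siRNA in DMSO by 0.63 ± 0.034 (adjusted p = 1.2e-05). In lapatinib IQGAP1 rose by 0.16 ± 0.042 (adjusted p = 0.0147), and its interaction of siRNA and drug was -0.45 ± 0.049 (adjusted p = 0.000598).

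A list of 16 epithelial antimicrobial and acute phase genes, which often rise with S100A7, S100A8 and S100A9 in inflamed epithelium, had 7 genes past the filter. With FOXA1 siRNA 6 of them rose in DMSO and 5 in lapatinib. SAA1 and SAA2 in DMSO, and SAA1 and CAMP in lapatinib, passed the filter through FOXA1 siRNA libraries only. Of the 5 that passed it through both groups, 4 rose in each, LCN2 and SLPI among them, where 21.9% and 22.7% of all genes tested rose. LCN2, lipocalin 2, which binds bacterial siderophores, went from 179 ± 55.6 to 723 ± 148 normalized counts in DMSO (2.03 ± 0.23, adjusted p = 0.000337). SAA1, SAA2 and CAMP rose too, by 3.05 ± 0.43, 1.98 ± 0.43 and 1.84 ± 0.26, at means of 43.1 or fewer normalized counts. With lapatinib in NT cells 2 of the list rose, the epithelial transcription factor ELF3 by 1.35 ± 0.049 (adjusted p = 1.3e-06) and the protease inhibitor SLPI by 0.49 ± 0.12 (adjusted p = 0.00921). With lapatinib in cells with FOXA1 siRNA 4 rose (ELF3 by 1.42, SAA1 by 0.69, SAA2 by 0.65 and SLPI by 0.57) and 1 fell, where 29.0% and 29.1% of all genes did. The 1 that fell was CAMP, by -1.90 ± 0.22 (adjusted p = 0.000159).

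Of 14 genes of the cornified envelope, 5 passed the filter. With FOXA1 siRNA in DMSO 2 rose, IVL and the transglutaminase TGM1 (1.19 ± 0.084, adjusted p = 3.6e-05), where 21.9% of all genes did. CSTA, KRT10 and SPRR3 did not pass the test there. With lapatinib in NT cells IVL and TGM1 fell, TGM1 by -1.03 ± 0.10 (adjusted p = 6.3e-05), and CSTA rose, where 29.2% of all genes fell and 30.5% rose. Among 4 basal and keratinocyte markers, KRT5 rose with FOXA1 siRNA from 7.54 ± 4.49 to 46.6 ± 8.40 normalized counts in DMSO (adjusted p = 0.00123). IVL and KRT14 rose there too, where 21.9% of all genes did, but KRT14 passed the filter through FOXA1 siRNA libraries only. TP63 did not pass the test, at means of 8.14 normalized counts in NT and 7.09 in FOXA1 siRNA with DMSO. The list summed to between 19.4 and 22.3 TPM in NT with DMSO and to between 82.2 and 93.5 TPM in FOXA1 siRNA with DMSO, nearly all of it IVL, beside the rise of S100A7, S100A8 and S100A9, and its part in that rise was not tested.

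Of 24 other EF-hand genes, the wider superfamily, 23 were tested with FOXA1 siRNA in DMSO, of which 8 rose and 6 fell, with a median of 0.084. CALB2, 1 of the 8, passed the filter through FOXA1 siRNA libraries only, so its rise was bound to the filter. Of the 22 that passed it through both groups, 7 rose and 6 fell, where 21.9% and 21.3% of all genes did. EFHD1, an EF-hand protein of mitochondria, fell by -2.76 ± 0.13 (adjusted p = 7.9e-06). With lapatinib in NT cells 9 of 22 rose and 7 fell, where 30.5% and 29.2% of all genes did, and NCALD, neurocalcin delta, was among those that rose, by 1.73 ± 0.12 (adjusted p = 1.2e-05).

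For each member with a mean of at least 100 normalized counts, the genes with the most similar pattern over the 12 libraries were found by the root mean square difference of log2 normalized counts, each gene centred on its mean, among 10812 genes. The nearest to S100A8 was NES, at 0.344, and the nearest to S100A9 was PRTG, at 0.212, both closer than S100A8 and S100A9 to each other, at 0.454. The nearest to S100A4 was EPB41L4B, at 0.089, and to S100A6 AHR, at 0.040, while the nearest member of either was further, at 0.466 and 0.137. JHDM1D was nearest to S100P, at 0.086, PPID to S100A10, at 0.081, and C2orf29 to S100A11, at 0.029. These distances describe 12 libraries that share their treatments and depth.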

How the data were processed

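RNA was measured in 12 libraries of SKBR-3 cells, grouped and numbered by their labels. Per library and gene, the authors deposited an expected count, which is an estimated read number and need not be whole, a TPM, and a normalized signal, obtained from the expected count by dividing by the library's upper quartile. The paper's methods name STAR, Salmon and hg38, and per the labels RSEM, R 3.2.2 and DESeq2 1.12.3 were used. The sources differ on the library kit and on the time of siRNA before drug, and strand use in counting is not given in the sources used here.

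Expected counts were rounded and tested with edgeR 4.0.16 (R 4.3.3) by its quasi-likelihood test after TMM, on the 6 libraries of each comparison (12 for the interaction) and genes that reached 10 counts in 1 library or more, with Benjamini-Hochberg adjustment over all genes tested. Changed means an adjusted p under 0.05. Normalized counts are scaled by TMM library sizes, and levels of different genes were compared by deposited TPM. Each SE was derived from the log2 fold change and the F value. The test was also run on simulated counts drawn without an effect of the replicate number, so that run does not cover such an effect. Sequences and coordinates came from RefSeq, GRCh38.p14, matched by Entrez gene ID or symbol for all 10 members, and Gencode v44 chose among several start sites. Python 3.11.15 with pandas 2.3.3, scipy 1.17.1 and matplotlib 3.10.9 made tables and plots.

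The members and lists were chosen with earlier results of these data known. Besides the members, FOXA1, ANXA1 and ANXA2, the genes named were up to 4 of each list and comparison with the largest change past the test and no overlap between groups, and the 2 most similar genes of each member, of which the nearest is given. Some genes that this rule names are not reported here. Alternatives were other normalizations (RLE, upper quartile), DESeq2 1.42.0, limma 3.58.1 on log2 of the deposited normalized signal plus 1, other filters, a threshold of 0.01, a replicate block, 1 model of all 12 libraries and leaving out each library. Leaving out the libraries numbered 2 was added after seeing the data. Deviations from group means of same-numbered libraries correlated in all 18 pairs, between 0.267 and 0.694 over 10813 genes. Those of different numbers correlated by -0.199 on average, from -0.526 to 0.202. Deviations cancel within a group, so this negative average largely follows from the positive values and is no separate evidence of pairing. The libraries numbered 2 stood apart in each group, and these correlations do not separate that from pairing by every number. Pairing by the other numbers alone was not tested. Blocked values are given where they change a call.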

Additional observations from a re-analysis of the deposited data

Results flagged for a closer look

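With a block for the replicate number, the response to lapatinib differed between FOXA1 siRNA and NT siRNA for 4 members. That fit called 1561 of 14012 genes upward and 1292 downward, against 559 and 449 without the block. The difference in log2 fold change was -0.75 for S100A8, whose fall with lapatinib was larger with FOXA1 siRNA, -0.14 for S100A11 and -0.38 for S100P, whose rises were smaller, and 0.22 for S100A14, whose rise was larger. Without the block none of the 4 passed the threshold by edgeR, with adjusted p-values of 0.165, 0.114, 0.159 and 0.0510, and DESeq2 called S100A11 and S100A14.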

How the results depend on the processing

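Of 796 values of single members under the alternatives, 742 kept their direction and their side of the threshold, 27 reversed, 16 gained and 11 lost their call. With an adjusted p under 0.01, 5 members in place of 8 passed for lapatinib with FOXA1 siRNA. For the interaction, where 0 members passed, RLE size factors gave 1, DESeq2 2, the replicate block 4 and leaving out the libraries numbered 2 gave 3. Calls over all genes differed too, from 559 upward and 449 downward in the main fit. They were 553 and 449 with RLE size factors and 821 and 630 with DESeq2. The block gave 1561 and 1292, and leaving out the libraries numbered 2 gave 1426 and 1092. Leaving out 1 library at a time gave 0 to 1 for the interaction, 6 to 7 for lapatinib with NT siRNA, 6 to 8 for lapatinib with FOXA1 siRNA, 6 to 7 for FOXA1 siRNA in DMSO and 6 in lapatinib. Counts past both thresholds were then 3 and 2 for lapatinib with NT and FOXA1 siRNA, 4 for FOXA1 siRNA in DMSO and 3 to 4 in lapatinib, where S100A9 gave as little as 0.90. The block changed no other call than those given beside S100A16 and the interaction.

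The reversed values belonged to members that had not passed, and all but 1 came from leaving out 1 library. Their ranges were -0.054 to 0.17 for S100A10 and -0.066 to 0.12 for S100P with FOXA1 siRNA in DMSO, and -0.15 to 0.064 for S100A10 and -0.17 to 0.015 for S100A16 with FOXA1 siRNA in lapatinib. For the interaction they were -0.049 to 0.096 for S100A4, -0.35 to 0.21 for S100A7, -0.30 to 0.12 for S100A9 and -0.20 to 0.045 for S100A10, and without the libraries numbered 2 S100A4 gave -0.046. Calls lost without 1 library were that of S100A4 for lapatinib with FOXA1 siRNA (without FOXA1 siRNA with DMSO replicate 1 or 3 or FOXA1 siRNA with lapatinib replicate 2 or 3, and also by DESeq2, with no filter and in 1 model of all 12 libraries), those of S100A14 for lapatinib with NT siRNA (without NT with DMSO replicate 3) and for FOXA1 siRNA in DMSO (without FOXA1 siRNA with DMSO replicate 1 or 3), and that of S100A16 for lapatinib with FOXA1 siRNA (without FOXA1 siRNA with DMSO replicate 3). The interaction passed for S100A8 without NT with DMSO replicate 2, at -1.03, and for S100A14 without NT with lapatinib replicate 2 or FOXA1 siRNA with DMSO replicate 2. S100A7 was left out by a filter of 10 counts in every library. The cause of these changes was not tested.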
